A study of Mus musculus with 80 samples.

Results

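RXR binding was compared between livers of PPARγ-null mice on a high-fat diet and livers of PPARγ-null mice on the control diet, with no drug in either diet. The members were the 5 KO HFD and 5 KO Control chromatin immunoprecipitation (ChIP) libraries, chosen by diet, genotype and drug labels, 10 of the 80 samples and of the 40 ChIP libraries of the series. The other libraries were wild type livers, livers of mice given pioglitazone (Pio) and matched input DNA. All mice were males, fed for 12 weeks and 5 months old at collection, and each library came from 1 mouse. The study's methods name C57BL6/J for the wild type mice. The KO mice came from PPARγ-loxP mice bred to Alb-Cre mice of a B6.Cg line. In both KO groups, the floxed PPARγ gene was deleted by a Cre recombinase driven by the albumin promoter. That promoter acts in hepatocytes and leaves PPARγ in the other cells of the liver. The labels of the 5 KO HFD libraries named RXR in the title but gave no antibody, while those of KO Control named an antibody against RXRα, RXRβ and RXRγ. The control diet was low in fat, by the study's methods.

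RXR is a nuclear receptor that binds DNA as a partner of PPARα, PPARγ, LXR, FXR, RAR and thyroid hormone receptors. PPAR and RXR bind together to a direct repeat of the letters AGGTCA, with a spacer of a single base. In liver, such pairs are known for regulating fatty acid oxidation, lipid storage, sterol export and bile acid synthesis, mainly from promoters, introns and intergenic enhancers.

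The values were peaks only: for each library, the intervals in which tags were enriched over input DNA, each with a fold enrichment at its summit over the local background. The 10 KO libraries held 1192009 to 2635145 tags, of which 651092 to 1057899 were kept after duplicates were removed. The 2 shortest lists, KO HFD replicate 5 with 8311 peaks and KO Control replicate 4 with 7630, were those with the most kept tags, 924151 and 1057899. Over the KO libraries, 70.6 to 85.1% of peaks had their summit in an exon of a protein-coding gene, although such exons make up 2.76% of the genome. In the 10 wild type libraries without Pio that share was 0.782 to 5.59%. With only peaks of −log10 q of at least 5, it was 82.1 to 87.3% in the KO libraries. In those wild type libraries it was then 1.005 to 31.9%, of only 19 to 597 peaks. KO libraries were called at a q-value of 0.05 with fewer kept tags, wild type libraries at a p-value of 0.001 with 2147242 to 4255942 kept tags, so that genotype, cutoff and depth cannot be told apart. Which step gave the exonic peaks was not tested.

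Pparg itself had no peak in any of the 10 livers, and since the files list only peaks this does not check the deletion. Peaks were also absent at Rxra, Cd36, Cfd, Cidec, Fabp4, Mogat1 and Plin4, of which all but Rxra are genes of lipid storage or fat cells that PPARγ is known to activate. Sites of the gene for RXRβ, Rxrb, were called in 3 of 5 livers of each group, and sites of Rxrg in 2 HFD livers and 0 Control livers, where the largest fold enrichments of a liver were 6.62 and 3.75. Cav1, which encodes caveolin 1, was called in 1 HFD liver at 3.78 and in 2 Control livers at 5.23 and 2.83. None of the sites of Rxrb, Rxrg or Cav1 was called in more than 2 livers.

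The high-fat diet did not detectably change the number of peaks. KO HFD livers held 23779, 21071, 28922, 19848 and 8311 peaks, and KO Control livers held 14728, 23508, 24383, 7630 and 22065. The groups overlapped, with means of 20386 ± 7598 and 18463 ± 7155 (SD, n = 5 each). The difference of log2 numbers was 0.15 (exact two-sided permutation test, p = 0.698). Its sign turned to −0.14 without KO Control replicate 4 and to −0.0041 without KO HFD replicate 3.

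The exon share was 79.0% ± 4.36 in KO HFD and 76.3% ± 4.66 in KO Control livers (SD, n = 5 each; exact permutation test, p = 0.389). Coding sequence held 45.6% and 43.6% of peaks, 3′ UTRs 31.6% and 31.2%, and introns 11.2% and 12.4%. Of the exonic peaks, 58.7% ± 2.93 in KO HFD and 58.9% ± 3.004 in KO Control lay wholly inside 1 exon. Across 16 measures of the libraries, which also took in kept tags, duplicates, fragment length and median fold enrichment, the smallest adjusted p was 0.861 (exact permutation tests with Benjamini-Hochberg adjustment).

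**Figure D1:**
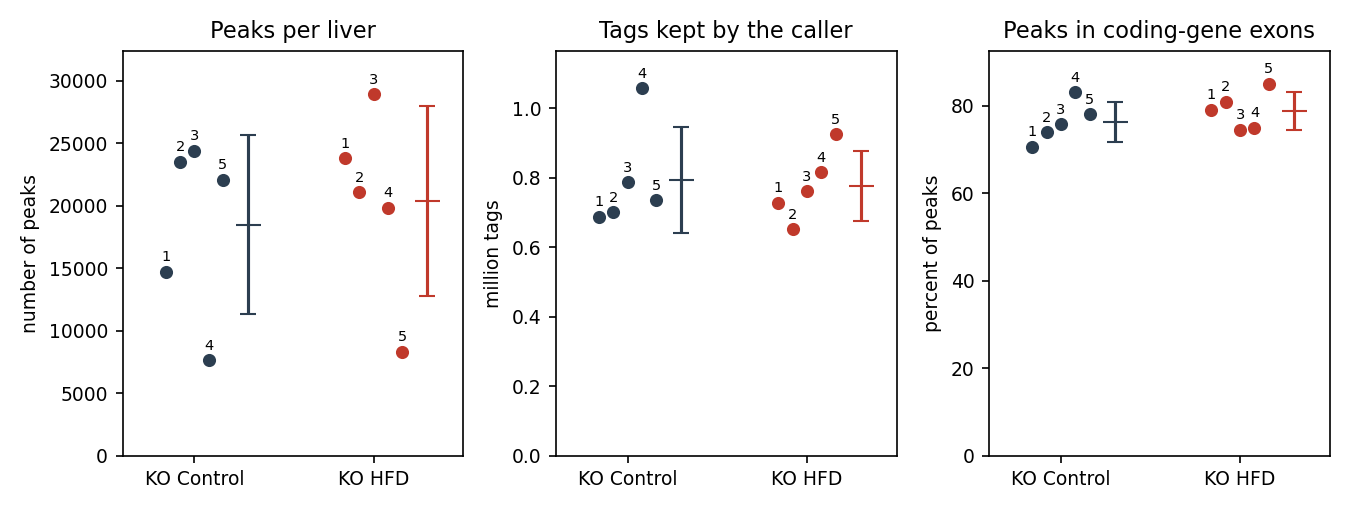
Number of peaks (left), tags kept by the peak caller (middle, in units of 1e6) and percent of peaks with a summit in an exon of a protein-coding gene (right) for the 5 KO Control and 5 KO HFD livers. Points are livers with their replicate number and the bars are mean ± SD. The groups overlap in each panel, and KO HFD replicate 5 and KO Control replicate 4 have the fewest peaks (8311 and 7630) with the most kept tags.

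Intervals that overlapped between livers were merged into 68634 sites, of which 39546 (57.6%) were called in 1 liver. At least 3 of the 10 livers shared 19156 sites, and all 10 shared 2252. Pairs of livers on the same diet were about as alike as pairs on different diets. Within KO HFD, a median of 53.9% of the sites of the liver with fewer sites was also called in its partner, against 51.4% within KO Control and 50.8% between the groups. Correlations of log2 fold enrichment across the 2252 sites, as a description over sites of these livers, had medians of 0.727, 0.724 and 0.740 in the same order.

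At the 2252 sites called in all 10 livers, no site passed the test for diet. The values were log2 fold enrichments centred on each liver's median, tested with limma, and 0 sites passed an adjusted p under 0.05 with at least a 2-fold change (0% of those tested). At an unadjusted p under 0.05, 46 sites were higher (2.04%) and 54 lower (2.4%) in KO HFD livers, 100 in all (4.44%). The largest estimates were 0.70 and −0.88 on the log2 scale, so that 0 sites reached a 2-fold estimate. For 2201 sites (97.7%), the 95% interval of the difference lay wholly within a 2-fold change in either direction, with a median half-width of 0.42. Without centring, or in any other fit with all 10 livers, 0 sites passed, and the smallest adjusted p was 0.816.

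**Figure D2:**
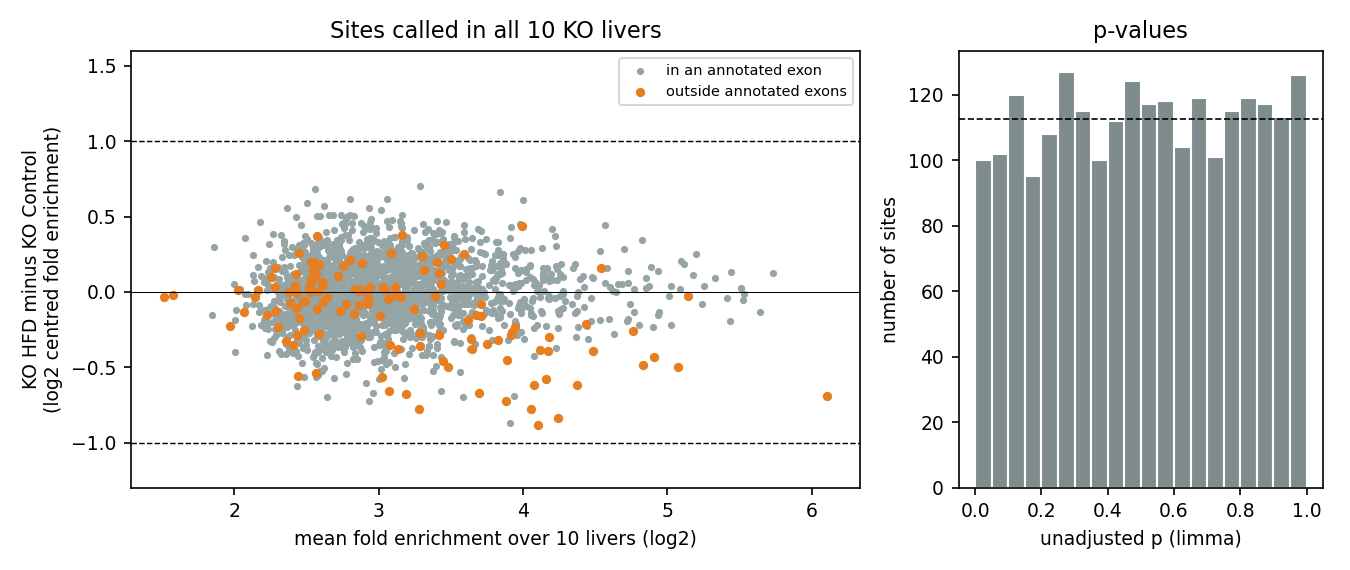
Left, mean fold enrichment over 10 livers (log2, x axis) against the difference KO HFD minus KO Control (log2 centred fold enrichment, y axis) for the 2252 sites called in all 10 KO livers, with sites outside annotated exons in orange and dashed lines at 2-fold. Right, histogram of the unadjusted limma p-values with the level of an even spread dashed. No site reaches 2-fold, and the first bin, below 0.05, holds 100 sites.

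After 1 intergenic site described further on, the highest mean values were in exons, mostly in cytoskeletal genes. At Tubb5, a β-tubulin gene (coding exon, chr17:35833931-35836416), fold enrichment was 51.7, 60.5, 63.2, 63.6 and 44.8 in the KO HFD livers and 42.8, 52.9, 59.8, 41.8 and 50.2 in the KO Control livers. The 2 groups overlapped, with means of 56.8 ± 8.22 and 49.5 ± 7.45 (SD, n = 5 each). At Actb, the gene of β-actin (coding exon, chr5:142903086-142904906), the means were 48.5 ± 6.63 and 51.6 ± 12.5. Tuba1a (3′ UTR) had means of 47.1 ± 10.4 and 45.5 ± 11.1 and Tubb3, the neuronal β-tubulin, of 46.6 ± 9.80 and 45.7 ± 8.87. Nnat, a gene of brain and endocrine tissue, had 47.5 ± 10.1 and 43.5 ± 2.92. Limma's adjusted p was 0.997 at each of these 5 sites. Tubulin and actin genes have close copies in the genome, so a peak at one member can hold reads of another.

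The sites with the smallest p-values higher in KO HFD included those at Gm11560, Dync1h1, Adgrl1, Flna and Hnrnpul1, none of which passed. Dync1h1 encodes the heavy chain of the dynein motor (coding exon, chr12:110632549-110633014). Its fold enrichment was 7.51, 7.64, 9.39, 6.45 and 6.13 in KO HFD livers against 4.34, 3.73, 4.59, 5.49 and 3.76 in KO Control livers. Each KO HFD value lay above each KO Control value, with a difference of 0.69 ± 0.19 (log2, SE, limma adjusted p = 0.936). Centred values of the groups did not overlap at 5 sites in this direction (0.222% of the 2252) and at 6 in the other (0.266%). No such share was taken for uncentred values, which are those listed here. At the pseudogene Gm11560 (chr11:99932636-99933271), whose reads can come from its parent gene, the means were 19.6 ± 1.35 and 12.3 ± 2.08. Means at Adgrl1, a neuronal adhesion receptor, were 12.3 ± 3.63 and 7.23 ± 2.20. Flna, the actin crosslinker filamin A (chrX:74242400-74243279), had 6.97 ± 2.09 and 4.38 ± 1.13, while another site of Flna had 8.32 ± 1.36 and 8.66 ± 2.58. Hnrnpul1, an RNA-binding protein gene, had 10.3 ± 1.94 and 6.42 ± 1.61.

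The sites with the smallest p-values lower in KO HFD were at Kmt2e, Mvb12b, an intergenic site on chromosome 6, Fnbp1l, Gm7172 and Chd4, and none passed. Kmt2e, a chromatin regulator (coding exon, chr5:23502411-23503281), had fold enrichments of 5.23, 5.76, 6.57, 6.54 and 5.46 in KO HFD livers and 8.38, 11.3, 8.45, 10.98 and 7.56 in KO Control livers. These uncentred values did not overlap, and the difference was −0.72 ± 0.19 (log2, SE, limma adjusted p = 0.936). Centred values did not overlap at 6 of the 2252 sites in this direction (0.266%), and no such share was taken for uncentred values. Mvb12b, a subunit of the endosomal sorting complex (3′ UTR, chr2:33729955-33730884), had 7.50, 7.68, 5.53, 5.18 and 5.27 against 8.49, 8.46, 9.63, 9.06 and 11.03, again without overlap. The intergenic site at chr6:3201339-3201672 had means of 10.3 ± 2.06 and 15.6 ± 2.76. At Fnbp1l, a gene of membrane bending and actin assembly, the means were 8.73 ± 3.14 and 12.9 ± 3.91, and at Chd4, the helicase of the NuRD complex, 6.69 ± 1.78 and 9.37 ± 2.001. The pseudogene Gm7172 had means of 5.01 ± 1.09 and 6.95 ± 1.35.

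The same diets were also compared with Pio added, in 5 KO HFD-Pio and 5 KO Pio livers that share no library with the comparison above. There, 0 of 3179 sites called in all 10 livers passed (limma, 168 at an unadjusted p under 0.05). Of the sites at p under 0.05 and higher without Pio, 38 could be tested with Pio, and 24 of them were higher in HFD-Pio, where 55.2% of all sites were higher. Of the 41 lower without Pio, 24 were lower in HFD-Pio. At Dync1h1 the difference with Pio was −0.41 ± 0.21 (log2, SE, limma adjusted p = 0.928) and at Kmt2e 0.03 ± 0.25. The difference between the diet effects with and without Pio gave 0 calls over 1985 sites (limma interaction, 99 at an unadjusted p under 0.05), and 1 call, Dync1h1, where values were not centred (adjusted p = 0.0484 against 0.830 with centring).

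Peaks gained with the high-fat diet, called in at least 3 of 5 KO HFD and in 0 of 5 KO Control livers, numbered 546 (2.85% of the sites called in at least 3 of 10). Peaks lost, by the reverse rule, numbered 300 (1.57%). Called in all 5 livers of one group and none of the other were 5 gained sites and 1 lost site. The exact Fisher test on livers called gave 0 sites with an adjusted p under 0.05, with 126 more often called in KO HFD and 42 less often at an unadjusted p under 0.05. With 5 livers per group its smallest possible p is 0.00794. Over 19156 sites it could pass only if very many sites were split 5 against 0, so the 0 says little about single sites. With every list shortened to its 7630 strongest peaks, the counts were 190 gained and 182 lost.

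**Figure D3:**
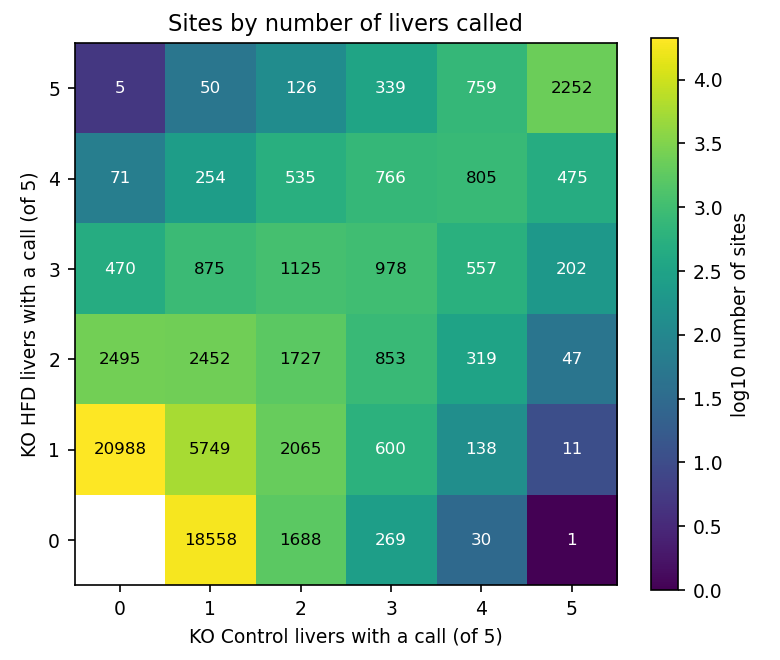
Number of sites by how many KO Control livers (x axis) and KO HFD livers (y axis) held a call, with the count in each cell and colour on a log10 scale. The largest cells hold sites called in 1 liver (20988 in KO HFD and 18558 in KO Control), all 10 livers hold 2252, and the corners of 5 against 0 hold 5 gained sites and 1 lost site.

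The gained and lost sites had few tags, close to the sites called in at least 3 livers. Their peaks had a median of 3.67 and 3.33 tags over the summit, mean over the livers called, against 4 tags at the 19156 sites called in at least 3 livers and 7.7 at sites called in all 10. Median fold enrichments were 4.11 for gained and 4.08 for lost sites, against 4.56 and 7.64. Exons of coding genes held 86.6% of gained, 83.3% of lost and 84.96% of the sites called in at least 3 livers. Of 540 gained sites with a gene, 514 lay in genes that at least 1 KO Control liver also called elsewhere, and 280 of 297 lost sites in genes that a KO HFD liver called. No such share was taken over the 19156 sites, so these counts cannot be called particular to gained or lost sites.

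The 5 sites called in each KO HFD liver and no KO Control liver were at Gm12807, Ptp4a3, Meis2, Dlgap1 and Acat1. Acat1, the mitochondrial acetyl-CoA acetyltransferase of ketone body metabolism, had an intronic site (chr9:53591950-53592214) with fold enrichments of 4.70, 3.76, 4.25, 3.74 and 4.59. Ptp4a3, a phosphatase gene, was called in its 3′ UTR (chr15:73756818-73757204) at 5.41, 4.70, 4.49, 4.62 and 5.40. Meis2, a homeobox gene (coding exon, chr2:116058525-116058812), had 5.54, 3.84, 5.63, 3.67 and 5.55. Dlgap1, a synaptic scaffold gene, had a mean of 4.37 ± 1.35 and the pseudogene Gm12807 one of 5.27 ± 1.06 (SD, n = 5 KO HFD livers). The values were low in each of the 5 livers, and Fisher's exact p of 0.00794, the smallest that 5 against 5 allows, was 1 after adjustment. Irgq and Bcl11b, a transcription factor gene, were called in 4 KO HFD livers, with means of 5.74 and 5.81.

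Lost sites at Agfg2, Nckap1, Pfdn6, Ppp1r37, Rere, Rusc2 and Pja2 were called in 4 KO Control livers and in no KO HFD liver. Their mean fold enrichments lay between 4.59 and 5.38. Nckap1 encodes a subunit of the WAVE actin regulator and Pfdn6 a subunit of the chaperone prefoldin. Of these 7, Agfg2 was called in an intron, Ppp1r37 in a 3′ UTR and the others in coding exons.

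Counted by gene, 7820 genes were called in at least 3 of 10 livers and 1888 in all 10. Gained genes numbered 108 (1.38%) and lost genes 59 (0.754%), and the exact Fisher test called 0 after adjustment (25 and 7 at an unadjusted p under 0.05). As for sites, this test could pass only if very many genes were split 5 against 0. With every list shortened to its 7630 strongest peaks, the order turned, with 45 genes gained and 67 lost. The strongest gained genes were Polr2j, a subunit of RNA polymerase II, Rpl37, a ribosomal protein, Wdr74 and the riboflavin kinase Rfk, each called in 4 KO HFD livers with means of 5.17, 4.92, 4.63 and 4.61. Dlx6, a homeobox gene, was the 1 gene called in all 5 KO Control livers and no KO HFD liver, at 2.83, 3.77, 2.77, 3.66 and 4.72. Agfg2, Cd9, which encodes a tetraspanin, and Agbl4 followed with 4 KO Control livers each and means of 5.38, 4.15 and 3.54.

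Gene lists of RXR partners and of their pathways were read against all 21911 protein-coding genes of the annotation, of which 48.4% had a site in any liver, 32.2% were called in at least 3 of 10 livers and 7.99% in all 10. No site of these lists passed the test with diet. Of 25 nuclear receptors and coregulators, 14 had a site (56%), 7 were called in at least 3 livers (28%) and 3 in all 10, among them the thyroid hormone receptor gene Thra and the coregulator Ncoa1. The number of these genes called per liver was 4 to 9 in KO HFD and 4 to 10 in KO Control. The strongest site, in the 3′ UTR of Thra (chr11:98767902-98769006), had 14.3, 18.1, 19.8, 24.3 and 12.8 against 21.8, 15.6, 26.2, 20.9 and 15.3. These overlapped, with a difference of −0.24 ± 0.21 (log2, SE, limma adjusted p = 0.997). The 8 sites of the list that could be tested all lay in Thra, with a median difference of −0.02, beside −0.0089 over all 2252.

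Of 21 lipid storage genes of PPARγ, 10 had a site in any liver (47.6%, near the 48.4% of all genes), 0 were called in all 10, and 0 were gained or lost as genes. Vldlr, the receptor for very low density lipoprotein, was called in 4 livers of each group, and Lpl, lipoprotein lipase, in 3 KO HFD and 2 KO Control livers. KO HFD livers held 0 to 9 of the 21 and KO Control livers 1 to 6. Of 30 genes of fatty acid oxidation, which PPARα is known to control, 9 had a site (30%). Acadl, the long-chain acyl-CoA dehydrogenase, was the 1 gained gene, called in 3 KO HFD livers with a mean of 3.45. Of all 7820 genes called in at least 3 livers, 1.38% were gained. Cpt2, Cyp4a10, Cyp4a14, Pdk4 and Fgf21 had no peak. Of 22 target genes of LXR and FXR, 7 had a site (31.8%) and 3 were called in at least 3 livers. Apoe, the lipid carrier, was called in all 10, with means of 12.5 ± 3.39 and 9.80 ± 1.56 in its 3′ UTR. Cyp7a1, Abcg5 and Abcb11 had no peak.

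Genes of sterol and fatty acid synthesis mostly held peaks in several livers. Of 31 genes, 25 were called in at least 3 livers (80.6%, against 32.2% of all genes) and 12 in all 10, with 14 to 24 per KO HFD liver and 15 to 23 per KO Control liver. Hmgcs1 and Fasn, of cholesterol and fatty acid synthesis, had mean fold enrichments of 11.4 and 11.8. The strongest site, in an intron of the acetyl-CoA carboxylase gene Acacb (chr5:114172977-114173295), had means of 36.1 ± 7.98 and 34.8 ± 6.87. It is 1 of 19 sites outside exons that share a repeated word, described further on, so its reads need not come from Acacb. The 20 sites tested, in 10 genes, had a median difference of 0.0075, with 0 at an unadjusted p under 0.05. Fdps, farnesyl diphosphate synthase, was gained with 3 KO HFD livers, where 1.38% of all 7820 genes called in at least 3 livers were gained.

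Of 44 genes of oxidative phosphorylation, 38 were called in at least 3 livers (86.4%, against 32.2% of all genes) and 14 in all 10. KO HFD livers held 24 to 38 and KO Control livers 18 to 37. Atp5a1, a subunit of the mitochondrial ATP synthase, had the smallest p of its 19 tested sites, with 14.8, 14.2, 12.1, 11.2 and 12.7 against 8.49, 12.2, 6.13, 8.74 and 10.2. The groups overlapped in 1 KO Control liver, and the difference of 0.46 ± 0.21 had an adjusted p of 0.997 (limma). Atp5k, another subunit, was the 1 lost gene, where 0.754% of all 7820 genes called in at least 3 livers were lost. In glycolysis, 13 of 20 genes were called in at least 3 livers (65%), and the 9 tested sites had a median difference of −0.048. Aldoa, an aldolase gene, was called in all 10 livers, while Pklr, a pyruvate kinase gene, Gapdh and Pgam1 had no peak. The phosphofructokinase genes Pfkl and Pfkm were each called in 4 KO HFD and 5 KO Control livers. Of 12 genes of gluconeogenesis and glycogen, 3 were called in at least 3 livers (25%, against 32.2% of all genes) and 0 sites could be tested. Among them G6pc, glucose-6-phosphatase, was called in 3 livers of each group and Pck1 in none.

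Chaperones, translation factors and ribosomal proteins were called widely. Of 25 chaperone genes, 22 were called in at least 3 livers (88%, against 32.2% of all genes). Hsp90ab1 had means of 29.9 ± 7.91 and 31.3 ± 6.72. Of 22 translation factors, 21 were called in at least 3 livers (95.5%), and Eef2 had means of 32.8 ± 5.94 and 31.9 ± 6.95. Eif5a had the smallest p of its list at 0.45 ± 0.18 (log2, SE, limma adjusted p = 0.997). Of 47 ribosomal protein genes, 26 were called in at least 3 livers (55.3%) and 16 in all 10 (34%, against 7.99% of all genes). Their 26 tested sites, in 15 genes, had a median difference of 0.13, beside −0.0089 over all sites, with 3 higher and 0 lower at an unadjusted p under 0.05, where 2.04% and 2.4% of all sites were. At Rpl23, fold enrichment was 11.1, 9.29, 8.75, 13.8 and 10.5 against 7.43, 7.82, 8.08, 4.28 and 8.55. These uncentred values did not overlap, 8.75 against 8.55 at the closest, and the difference was 0.51 ± 0.21 (limma adjusted p = 0.997). Centred values did not overlap at 5 of the 2252 sites in this direction (0.222%), and no such share was taken for uncentred values. Ribosomal protein genes have many processed copies, so their peaks are uncertain in place.

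The share of genes with a site was lower in the lists of hepatocyte genes, and higher in that of neural genes, than the 48.4% of all protein-coding genes, as a description with no test. Of 33 genes of secreted liver proteins, 5 had a site (15.2%) and 2 were called in at least 3 livers. Alb, Apoa1, Apob, Trf, Fga, Serpina1a and Hp had no peak, while Ttr, transthyretin, which the choroid plexus also makes, was called in all 10 at means of 19.4 ± 4.89 and 19.3 ± 1.83. Of 30 hepatocyte enzymes and transporters, 7 had a site (23.3%). Glul, glutamine synthetase, and Gstm1, a glutathione transferase, were called in all 10 livers and the catalase gene Cat in 6, while Cps1, Cyp2e1, Cyp3a11 and Arg1 had no peak. Of 32 neural genes, 29 had a site (90.6%), 27 were called in at least 3 livers and 17 in all 10, among them Map1b, Stmn2, Gap43 and Uchl1 with mean fold enrichments of 27.9, 24.8, 24.5 and 21.8. Mbp, Mag and Gfap had none. The summed fold enrichment of the neural list was 265.5 to 384.8 in KO HFD and 239.9 to 392.5 in KO Control livers, and that of the secreted liver proteins was 13.9 to 33.9 and 21.7 to 24.9. A peak is not a level of RNA, the labels give liver as the tissue of all 10, and what the 2 lists have to do with the source of the tags was not tested. The 54 neural sites tested, in 17 genes, had a median difference of 0.036, beside −0.0089 over all sites, with 1 at an unadjusted p under 0.05.

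Among the remaining lists, calls ranged from every gene to none. All 18 cytoskeletal actin and tubulin genes had a site (against 48.4% of all genes) and 11 were called in all 10 livers (61.1%, against 7.99%). Over all protein-coding genes, 32.2% were called in at least 3 livers. For stellate cell and matrix genes it was 14 of 22 (63.6%), and for smooth muscle genes 11 of 16 (68.8%). For skeletal muscle genes it was 2 of 18 (11.1%), and for annotated blood cell genes 3 of 16 (18.8%). Mylk, myosin light chain kinase, was gained in the smooth muscle list with 3 KO HFD livers. Of all 7820 genes called in at least 3 livers, 1.38% were gained. Of 26 genes of inflammation and Kupffer cells 1, Cd44, was called in at least 3 livers, and Adgre1, Clec4f and Cd68 had no peak. Intestine, adipose tissue and testis and lung had 0 genes in at least 3 livers, kidney 1 of 12, and pancreas no site.

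**Figure D4:**
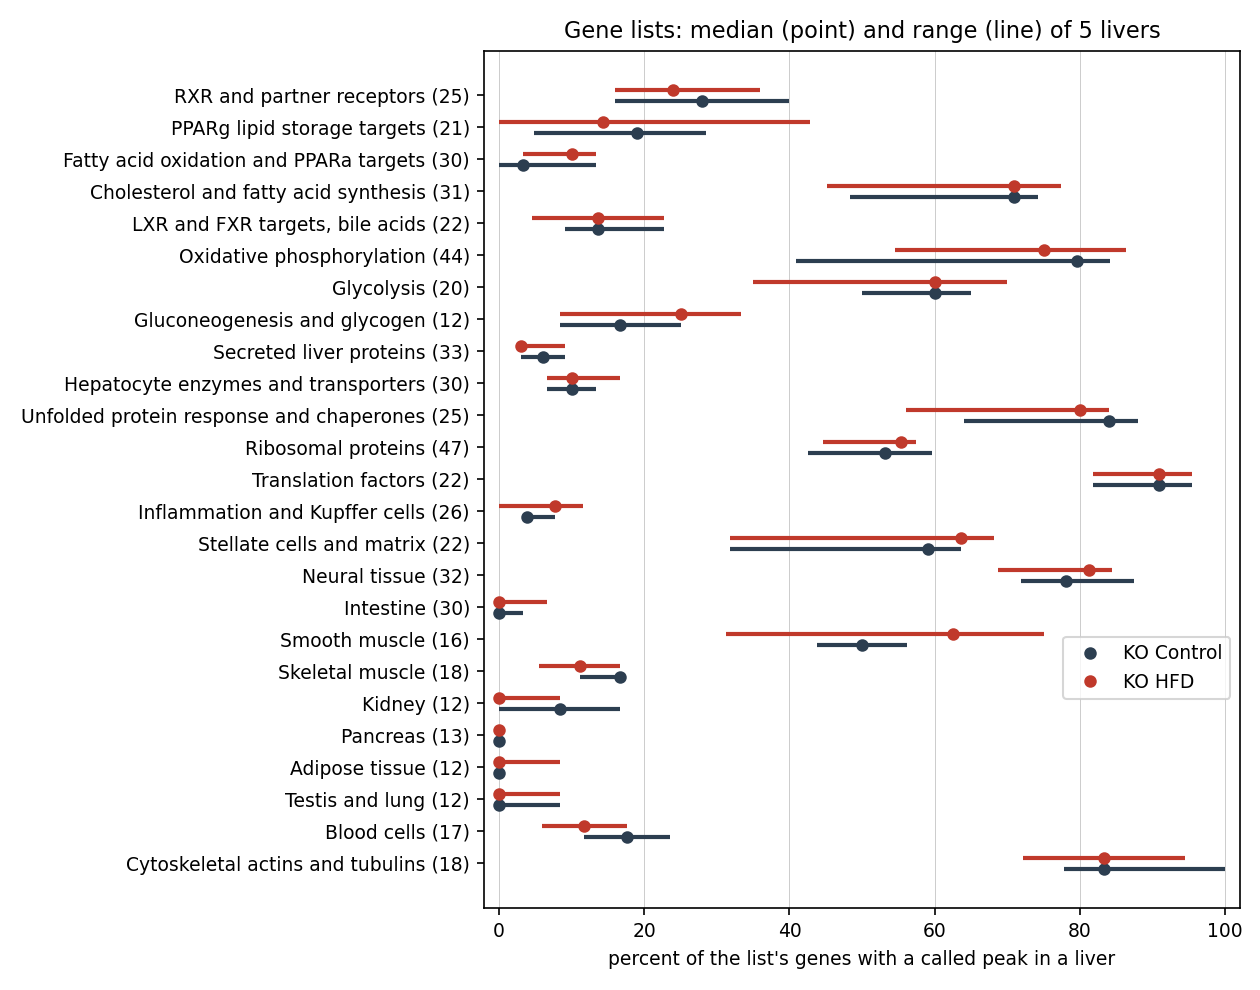
Percent of each gene list with at least 1 called peak in a liver (x axis), for 25 lists with their number of genes in parentheses. Points are medians and lines are ranges of the 5 KO HFD (red) and 5 KO Control (dark) livers. The ranges of the 2 diets overlap in every list, and the neural list lies far above the secreted liver proteins.

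Sequences under the summits were searched for the known RXR motifs. The half-site AGGTCA, on either strand within 100 bp of the summit, was found at 13.7% of gained sites, 12.0% of lost sites and 13.1% of the 19156 sites called in at least 3 livers. Outside annotated exons, it was found at 13.1% of 1728 sites called in at least 3 livers and at 15.1% of the 126 called in all 10. The whole repeat, 2 half-sites AGGTCA in the same direction with 1 base between them, on either strand, holds the half-site and occurred without mismatch at 9 of the 19156 sites and at 0 of the 2252 called in all 10. With up to 2 mismatches it was found at 2.75% of gained, 1.67% of lost and 2.71% of all 19156. Of the 9 sites, 6 were in 3′ UTRs, 2 in coding exons and 1 in an intron. An exact motif and a peak met at all 9, and Ctdsp2 and Nlgn3, both in 3′ UTRs, were each called in 3 KO HFD and 4 KO Control livers. Only the 3 outside UTRs are shown, from the plus strand of GRCm38, with the repeat in capitals.
Celsr3 at chr9:108837920-108837948: cttaagccTGACCTCTGACCTcaggcccc
Mark4 at chr7:19434793-19434821: aggccccaTGACCTCTGACCTcagtcttc
Adcyap1r1 at chr6:55494246-55494274: ctaagcccTGACCTCTGACCTactgccac

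Celsr3, a cadherin gene (coding exon, 78 bp from the summit), was gained, with 2.79, 4.25 and 6.89 in KO HFD replicates 2, 3 and 5 and no call in KO Control livers. Mark4, a kinase gene (coding exon), was called in 1 KO HFD liver at 5.17 and in 3 KO Control livers at 4.26, 2.73 and 5.87. Adcyap1r1, a neuropeptide receptor gene (intron), was called in 2 KO HFD livers at 4.69 and 3.75 and in 1 KO Control liver at 3.75. The repeat in these sites rested on peaks of 3.33 to 4.5 tags.

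The 126 sites called in all 10 livers outside annotated exons showed a pattern in which 1 library stood apart. The site with the highest fold enrichment of all, 68.9, was intergenic at chr17:4626039-4626714. It held a tandem repeat of the letters ATTCC, shown here around its summit because no other site had a higher mean, with complete units of the repeat in capitals.
Intergenic site at chr17:4626341-4626370: ttccATTCCATTCCactccATTCCATTCCa

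Its fold enrichment was 30.5, 120.0, 47.3, 65.6 and 27.3 in KO HFD livers and 104.0, 92.9, 55.8, 91.9 and 53.3 in KO Control livers. KO HFD replicate 2 was the highest of all 10, replicate 4 lay among the KO Control livers and the other 3 lay below them. Of the 126 sites, 15 held at least 3 units of ATTCC in a row on either strand, and 19 others shared a word of 16 bases with at least 5 other sites of the 126. These sites were grouped after their values had been seen, so their difference was not tested. In centred values, all 15 repeat sites and 17 of the 19 were lower in KO HFD, with median differences of −0.38 and −0.30 (log2). Of the remaining 92 sites 50 were lower, with a median of −0.026, and of all 2252 sites 1168 were. Copies of a repeat can share reads, so their values need not be independent and a read need not come from the site it was placed on. How reads that match several places were handled was not examined.

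Relative to the median of each liver, the repeat sites had a median log2 fold enrichment of 0.30, 2.12, 0.38, 1.01 and 0.045 in KO HFD replicates 1 to 5 and of 1.84, 1.25, 0.86, 1.71 and 0.83 in KO Control replicates 1 to 5. KO HFD replicate 2 stood above each other liver, and replicates 1, 3 and 5 below all KO Control livers. KO HFD replicate 2 also had the shortest fragments, 119 bp against 147 to 164 bp in the other 9 livers, and the part of fragment length in these values was not tested.

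**Figure D5:**
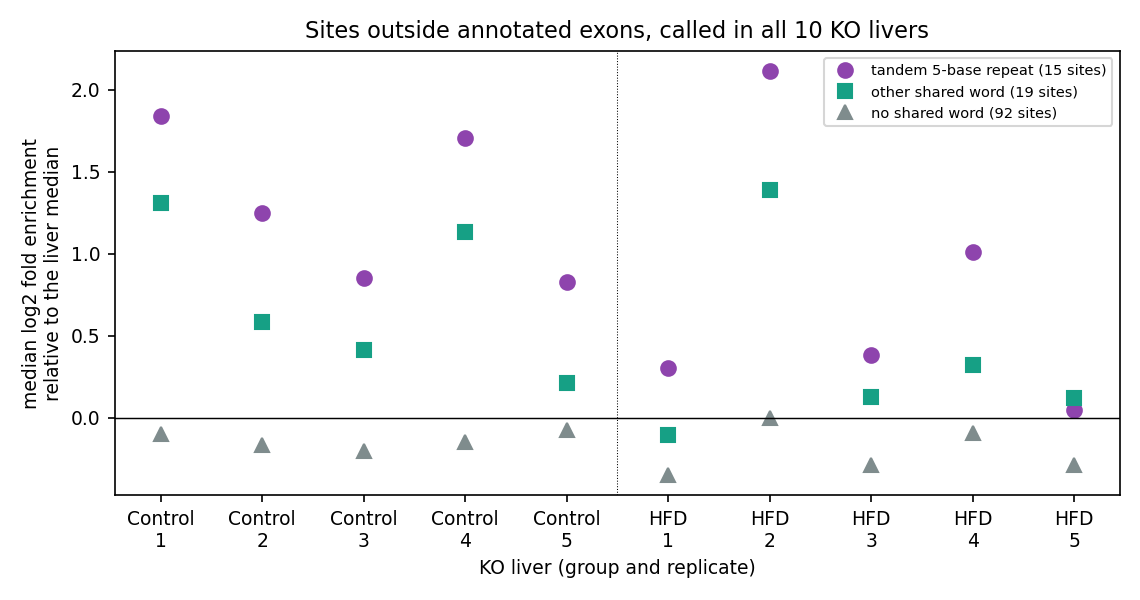
Median log2 fold enrichment relative to the liver median (y axis) for each KO liver (x axis) at the 126 sites outside annotated exons that all 10 livers called. Circles are 15 sites with a tandem 5-base repeat, squares 19 sites with another shared word and triangles the other 92 sites. KO HFD replicate 2 is the highest of the 10 livers for circles and squares, while the other 4 KO HFD livers lie at 0.045 to 1.01 for circles, against 0.83 to 1.84 in KO Control.

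Without KO HFD replicate 2, 5 sites of 2302 passed (limma, adjusted p from 0.00662 to 0.0396), all lower in KO HFD and none in a coding exon. They are named because they were called there, after their values were seen. At an intron of Izumo1, a sperm-egg fusion gene (chr7:45623563-45623868), fold enrichment was 9.59, 32.5, 9.60, 8.12 and 8.43 in KO HFD livers against 24.5, 15.6, 15.8, 27.9 and 19.8. At Rn7s6, a non-coding gene related to the 7SL RNA (chr6:69516223-69516526), it was 5.41, 33.6, 10.3, 10.4 and 4.63 against 18.9, 19.8, 16.3, 17.4 and 13.2. KO HFD replicate 2 was above all KO Control livers at both, and the other 4 KO HFD livers below all of them. The differences without it were −1.27 and −1.33 (log2), and with all 10 livers −0.88 ± 0.31 and −0.87 ± 0.36 (SE, limma adjusted p = 0.997). The other 3 sites were intergenic, at chr2:25551955-25552250, chr2:60402640-60402958 and chr3:149317103-149317390, with differences of −1.11, −1.21 and −1.12 without KO HFD replicate 2. The Izumo1 site belongs to the 19 sites with another shared word and the site at chr2:60402640 to the 15 repeat sites. Their reads therefore need not come from these places. The sites at chr2:25551955 and chr3:149317103 shared no word, and Rn7s6, in an annotated exon, was not classed.

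In wild type livers, the high-fat diet went with a log2 difference in the number of peaks of −1.50, against 0.15 in KO livers. The difference of 1.65 between the genotypes had p = 0.0808 (exact permutation of diet within genotype, 63504 assignments). With only peaks of −log10 q of at least 5 it was 1.84, with p = 0.00728 by the same exact test. There, wild type livers held 19 to 78 peaks, apart from WT Control replicate 2 with 597, and KO livers 2885 to 8174. Calling cutoff and depth also differed between the genotypes, so an effect of genotype cannot be told apart from theirs.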

How the data were processed

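The 40 ChIP libraries were 50-base single reads; the authors aligned them with Novoalign to mm10 and called peaks against input with MACS2 2.1.1.20160309, keeping 1 tag per position. The deposited files give for each summit a pileup (signal), a −log10 p-value, a fold enrichment (a ratio to the local background) and a −log10 q-value. Read counts outside peaks were not used here, so a site without a call has no value and no interval could be given; depth was read from the file headers.

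From these, 1 summit per interval (the strongest) was kept on chromosomes 1 to 19, X and Y, and intervals sharing 1 bp were merged. Summits were placed on GENCODE M21 (GRCm38, the same assembly as mm10; 0 peaks lay beyond a chromosome end), with the gene's own 5 kb upstream and 1 kb downstream. Sequence was read from RefSeq GRCm38. Limma 3.58.1 with a mean trend (R 4.3.3), exact permutation tests and Fisher's exact tests were two-sided, with Benjamini-Hochberg adjustment over all sites or genes tested, and called at an adjusted p under 0.05 and, for limma, 2-fold. The test between genotypes was planned with random resamples and run over all assignments. Scripts were tested on simulated data.

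Livers were grouped by labels, and each came from a separate mouse. Members and gene lists (25 lists) were chosen with earlier results of these data known. Sites named were the 6 higher and 6 lower with the smallest p, 8 gained and 8 lost sites and 4 gained and 4 lost genes called in the most livers (ties by mean fold enrichment), the 6 highest sites, each list's strongest member and the one with the smallest p, and 11 fixed genes. Some sites and genes that this rule takes in are not reported here.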

Additional observations from a re-analysis of the deposited data

Results flagged for a closer look

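Groups of 5 values were searched for a library far from the other 4 by Dixon's criterion, where chance gives about 1 in 20. Apart from the sites named because they passed without KO HFD replicate 2, 3 of 72 groups held one. KO Control replicate 4 had 1057899 kept tags, against 687802 to 786145 in the other KO Control livers, and a fold enrichment of 4.28 at Rpl23 against 7.43 to 8.55. KO HFD replicate 5 had 3.38% of its peaks in pseudogenes, against 2.79 to 2.86% in the other KO HFD livers. At the sites that passed without KO HFD replicate 2, that liver stood apart in 4 values, which the choice of these sites favours, so their number cannot be set against chance. At Izumo1 it had 32.5 against 8.12 to 9.60, and at Rn7s6 33.6 against 4.63 to 10.4. It had 21.1 at both intergenic sites on chromosomes 2 (starting at 60402640) and 3 (starting at 149317103), against 3.49 to 7.43 and 3.78 to 6.13.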

How the results depend on the processing

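With at most 1057899 kept tags and a median of 3.67 tags at a gained site, a weak site missed in a liver cannot be told from an absent one. The difference in the number of peaks was 0.15 and ranged from −0.14 to 0.45 when 1 liver at a time was left out (lowest without KO Control replicate 4; −0.0041 without KO HFD replicate 3), and was −0.059 for peaks outside all annotated exons. That in exon share ranged from 1.09 to 4.31 percentage points. The diet effect between genotypes was 1.84 (exact permutation test, p = 0.00728) at −log10 q of at least 5, where wild type livers held only 19 to 597 peaks. Limma calls were 0 in 20 of 21 fits and 5 without KO HFD replicate 2, so 0 to 5 with 1 liver left out; without centring, the interaction with Pio gave 1 call.

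Leaving out 1 liver gave 145 to 966 gained and 83 to 596 lost sites, with 145 and 596 without KO HFD replicate 3 and 966 and 83 without KO Control replicate 3. Gained genes ranged from 25 to 210 and lost genes from 14 to 135. Counts of gained and lost sites were 231 and 59 at −log10 q of at least 5, 190 and 182 at equal list length, 76 and 31 for at least 4 of 5 livers, and 49 and 32 outside annotated exons. For genes, they were 88 and 13 at −log10 q of at least 5, 45 and 67 at equal list length, which turns the order of 108 and 59, and 20 and 5 for at least 4 of 5 livers. Without KO HFD replicate 5 and KO Control replicate 4, left out after seeing the data, 508 sites were gained and 266 lost, and limma called 0 of 3240.

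Same-numbered livers did not deviate together (correlations of −0.084 to 0.043 over sites), so the numbers do not pair them. With the replicate number as a block, the difference in peaks was 0.15 (exact sign-flip test, p = 0.75), that in exon share 2.62 (p = 0.562), and limma called 0 sites. The 25 differences followed by site kept their direction in all 470 refits. In 465 they did not pass, as in the main fit, and the other 5 were the calls without KO HFD replicate 2. Most of these sites were chosen for a small p or for such a call in the same livers. The refits reused those livers, so a kept direction says little about how stable the differences are.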
